A study of Mus musculus with 81 samples.

Results

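Hearts of 37 BXD strains were divided by their level of Nxpe4, a gene of chromosome 9, and the rest of the transcriptome was compared between the 20 strains with a low level and the 17 strains with a high level. The groups were chosen by the measured values: for each strain the Nxpe4 values on chow and on high fat were averaged, and strains with a mean under 8 formed the low group and those at 8 or more the high group. These 37 strains, with 74 arrays, are all the BXD strains with both diets among the 42 strains and 81 arrays of the series. The remaining 5 strains were kept out of the groups: the parents, C57BL/6J and DBA/2J, and BXD60, BXD79 and BXD92a, which have a chow array alone.

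Each array was hybridised with heart RNA pooled from about 5 male mice of 1 strain on 1 diet, killed at 29 weeks after a night without food. The control diet was standard chow. The second diet is labelled high fat, with no composition stated in the sources used here. No transgene or drug is named in the labels, so a group is a set of inbred genotypes, of which each has 1 pool on chow and 1 on high fat. The spread between animals is not seen, and the strain is the replicate throughout. Values are in rescaled units, with the probe sets of each array averaging 8 with an SD of 2. The scale is log-like with an unknown base, so differences are given in units and never as folds.

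BXD strains are recombinant inbred lines bred from C57BL/6J and DBA/2J. A strain is in general fixed for one or the other parent's version at a place in the genome, and genes that lie close together usually come from the same parent. A transcript that differs between the parental versions of its own gene therefore tends to split such strains into 2 groups, and the same split marks the parental origin of the surrounding segment. Nxpe4 encodes neurexophilin and PC-esterase domain family member 4, of a family known best from the epithelium of the large intestine rather than from the heart. Nxpe2 is its neighbour and relative.

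The sequences around the starts of Nxpe4, of Nxpe2 and of Drd2, the dopamine D2 receptor gene, are shown because Nxpe4 chose the groups and the other two have the widest differences among the genes that passed the test. Each window runs from 250 bases before to 50 bases after a RefSeq transcript start (build GRCm38.p6, the sequence of C57BL/6J), 5′ to 3′ on the gene's own strand. Those of DBA/2J and of the BXD strains were not used here. The windows are chr9:48361791-48362090 on the plus strand for Nxpe4, chr9:48340849-48341148 on the minus strand for Nxpe2 and chr9:49340153-49340452 on the plus strand for Drd2. Capitals mark matches, on either strand, to the TATA box motif TATAAA, to the box CCAAT, to the E-box motif CACGTG and to the AP-1 motif TGANTCA.
Nxpe4: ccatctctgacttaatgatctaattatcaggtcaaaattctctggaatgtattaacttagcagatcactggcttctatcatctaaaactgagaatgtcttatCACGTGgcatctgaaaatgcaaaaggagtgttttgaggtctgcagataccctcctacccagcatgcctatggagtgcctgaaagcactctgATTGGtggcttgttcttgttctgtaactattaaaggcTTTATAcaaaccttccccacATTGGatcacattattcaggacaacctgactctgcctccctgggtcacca
Nxpe2: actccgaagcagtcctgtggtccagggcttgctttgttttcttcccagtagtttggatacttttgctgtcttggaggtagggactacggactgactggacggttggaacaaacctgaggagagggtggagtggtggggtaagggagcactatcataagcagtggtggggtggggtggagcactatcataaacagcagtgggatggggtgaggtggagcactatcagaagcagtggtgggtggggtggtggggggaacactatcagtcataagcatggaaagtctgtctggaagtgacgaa
Drd2: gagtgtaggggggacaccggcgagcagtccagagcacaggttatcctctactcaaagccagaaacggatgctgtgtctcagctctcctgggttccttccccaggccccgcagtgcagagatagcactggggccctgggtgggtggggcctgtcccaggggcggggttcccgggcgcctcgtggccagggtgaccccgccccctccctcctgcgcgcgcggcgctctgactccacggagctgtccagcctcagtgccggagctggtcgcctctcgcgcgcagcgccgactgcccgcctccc
The Nxpe4 window holds 1 match to TATAAA, 2 to CCAAT and 1 to CACGTG, none of them overlapping, and none to TGANTCA. The windows of Nxpe2 and Drd2 hold none of the 4 motifs. Among 32851 windows of the same length 13.6% hold TATAAA, 37.4% CCAAT, 7.15% CACGTG and 7.81% TGANTCA. The share of G and C was 42.3% for Nxpe4, 53.3% for Nxpe2 and 70.3% for Drd2, with a median of 52.7% over all windows. The RefSeq gene span of Nxpe4, which covers several transcript starts, encloses that of Nxpe2, and their windows lie on opposite strands. Whether the probes of either gene also bind transcripts of the other was not tested.

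The 2 groups stood far apart in Nxpe4, as the rule that made them ensures. In the low group the strain means ran from 6.28 (BXD87) over a median of 6.74 to 7.20 (BXD75). In the high group they ran from 8.93 (BXD43) over a median of 9.27 to 9.79 (BXD101). No strain lay in the 1.73 units between BXD75 and BXD43, the strains nearest to the boundary on either side. The group means were 6.72 ± 0.213 (SD, n = 20) and 9.32 ± 0.247 (SD, n = 17), a difference of 2.60 units. The low group holds, from lowest to highest, BXD87, BXD61, BXD89, BXD65, BXD84, BXD64, BXD83, BXD95, BXD66, BXD85, BXD49, BXD63, BXD50, BXD103, BXD98, BXD90, BXD44, BXD69, BXD80 and BXD75. The high group holds BXD43, BXD96, BXD55, BXD45, BXD73, BXD48, BXD97, BXD51, BXD100, BXD56, BXD99, BXD81, BXD68, BXD62, BXD71, BXD70 and BXD101.

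**Figure D1:**
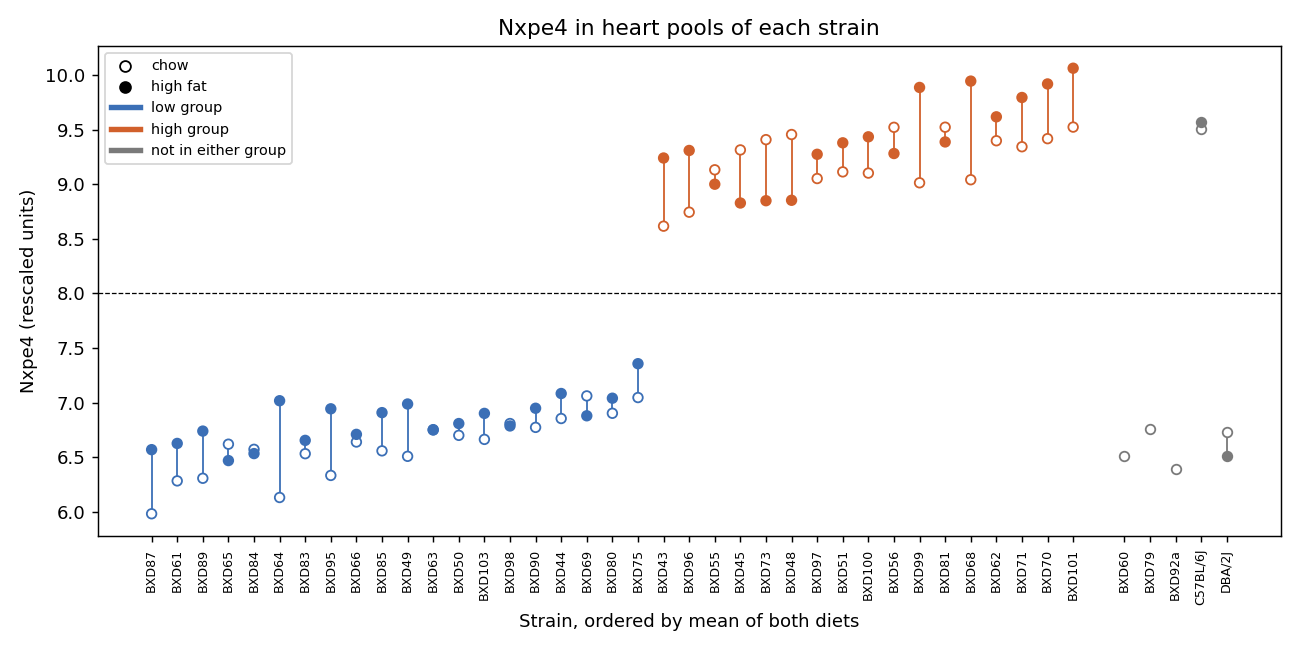
Nxpe4 in rescaled units (vertical axis) in the chow pool (open circle) and high fat pool (filled circle) of each strain, with strains ordered by their mean. The dashed line at 8 divides the low group (blue) from the high group (orange), and grey points are the strains outside both groups. No array of the low group exceeds 7.36 and none of the high group lies below 8.62.

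Either diet alone gave the same division. On chow the low group ran from 5.98 over a median of 6.63 to 7.06 and the high group from 8.62 over 9.31 to 9.52. On high fat the low group ran from 6.47 over a median of 6.84 to 7.36 and the high group from 8.83 over 9.38 to 10.06. Thus 0 of 37 strains would have changed group had only one diet been used. Of the strains outside the groups, C57BL/6J had 9.51 on chow and 9.57 on high fat, within the range of the high group. DBA/2J had 6.73 and 6.52, within that of the low group, and the chow pools of BXD60, BXD79 and BXD92a had 6.51, 6.76 and 6.40.

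The difference between diets in Nxpe4 was small beside that between the groups. In the low group the high fat value exceeded the chow value by 0.234 ± 0.272 (SD, n = 20), and was higher in 16 of 20 strains (sign-flip permutation test, two-sided, p = 0.00066). In the high group the difference was 0.197 ± 0.478 (SD, n = 17), higher in 11 of 17 strains (p = 0.109 by the same permutation test), and it passed without BXD48 or without BXD73 (0.246 and 0.244, permutation p = 0.0449 and 0.0492). The diet difference itself did not differ detectably between the groups (high minus low -0.0378, permutation test, two-sided, p = 0.771). Among 22180 genes 11.4% had a mean diet difference at least as wide as that of Nxpe4 in the low group, and 18.5% in the high group. The spread in the high group was wide, from -0.602 to 0.903 units.

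Beyond Nxpe4 the division marked 9 genes. Of 22179 other genes 9 differed between the groups at an adjusted p under 0.05 (0.0406%, limma on 37 strain means with Benjamini-Hochberg adjustment over all genes). All 9 lie near Nxpe4 on chromosome 9, among 200 measured neighbours taken as the 100 genes on each side in gene order. Of 1053 other genes of chromosome 9, 20740 genes of other chromosomes and 186 unplaced genes 0 were called. At an unadjusted p under 0.05, which 6.34% of all genes reached, the share was 17% among the neighbours (34 of 200), 7.69% among other genes of chromosome 9 and 6.13% on other chromosomes.

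The relative of Nxpe4 was the clearest. Nxpe2, which adjoins Nxpe4 in gene order, had strain means from 7.30 over a median of 7.70 to 8.06 in the low group, and from 8.14 over 8.40 to 8.77 in the high group. It was the one gene of 22179 whose groups of strains did not overlap (0.00451%). The difference was 0.726 ± 0.0563 units (SE, 95% interval 0.612 to 0.841, limma adjusted p = 1.63e-11). On single arrays the groups did touch on chow, with low pools from 7.43 to 8.25 and high pools from 7.98 to 8.93, while on high fat they ran from 7.13 to 7.88 and from 7.92 to 8.94. Within the groups Pearson's r of Nxpe2 with Nxpe4 over strains was -0.25 in the low group (n = 20) and 0.43 in the high group (n = 17), given as descriptions.

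Drd2, the receptor through which dopamine inhibits adenylate cyclase, was the one called gene with lower values in the high group. Its strain means ran from 8.38 over a median of 9.29 to 9.88 in the low group, and from 8.23 over 8.48 to 8.90 in the high group. The difference was -0.817 ± 0.0891 (SE, 95% interval -0.998 to -0.636, limma adjusted p = 2.37e-07). The overlap came from a single strain, BXD84, whose mean of 8.38 lay inside the high group's range although its Nxpe4 was low. The other 19 low strains all stood above the highest strain of the high group.

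Nnmt, which methylates nicotinamide, and Zw10, a protein of the kinetochore and of traffic between endoplasmic reticulum and Golgi, were both higher in the high group. Nnmt ran from 7.06 over a median of 7.32 to 7.65 in the low and from 7.43 over 7.68 to 8.05 in the high group, a difference of 0.386 ± 0.0504 (SE, limma adjusted p = 1.23e-05). Zw10 ran from 8.63 over 8.77 to 9.03 in the low and from 8.76 over 9.17 to 9.54 in the high group, a difference of 0.383 ± 0.0481 (SE, limma adjusted p = 6.33e-06). Both pairs of groups overlapped, Nnmt over 0.227 units that hold 3 low and 8 high strains, and Zw10 over 0.269 units that hold 13 low and 4 high strains.

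Ttc12, a tetratricopeptide protein needed to assemble ciliary dynein, lies just beyond Drd2 and Ankk1 in gene order. It differed by 0.345 ± 0.0622 (SE, limma adjusted p = 0.0057), from 10.9 ± 0.191 to 11.2 ± 0.20 (SD, n = 20 and 17). It had more strains than any other called gene, 6, on the far side of the midpoint between the group means. The midpoint is used here only to describe the strains.

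Further along, 4 genes within a stretch of 6 positions were all higher in the high group. Dixdc1, a DIX domain protein of Wnt signalling, went from 7.87 ± 0.164 to 8.23 ± 0.128 (SD), a difference of 0.363 ± 0.0485 (SE, limma adjusted p = 1.76e-05). Alg9, a mannosyltransferase that builds the sugar precursor of N-glycans, went from 9.65 ± 0.119 to 9.89 ± 0.0648 (SD), a difference of 0.244 ± 0.0341 (SE, limma adjusted p = 4.24e-05). The gene 1110032A03Rik, which the rule for named genes would have left as a count and which is named here after its values were seen, differed by 0.384 ± 0.0554 (SE, limma adjusted p = 7.08e-05). No low strain other than BXD44, BXD83 and BXD84 reached the high side for Dixdc1, and only the latter pair did for 1110032A03Rik.

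Cryab encodes alphaB-crystallin, a small heat shock protein abundant in heart muscle that binds desmin and titin. Its difference was the smallest of the 9 in units, 0.146 ± 0.0282 (SE, 95% interval 0.0891 to 0.204, limma adjusted p = 0.0158), from 15.2 ± 0.0855 to 15.4 ± 0.0610 (SD). It was not called on chow alone (adjusted p = 0.194), on high fat alone (0.703), after quantile normalization (0.268) or with the mean of its 2 probe sets (0.663). Its second, dimmer probe set had a difference of 0.194 ± 0.108 (SE). In a fit over all 41344 other probe sets, added after the data were seen, 11 were called: those of the 9 genes, 1 unnamed probe set and 1 that the platform table assigns to both Hspb2 and Cryab. The last differed by 0.230 ± 0.0406 (SE, limma adjusted p = 0.00781). In the RefSeq table the span of Cryab encloses that of Hspb2, another small heat shock protein gene, so signal of the pair is not separated there.

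**Figure D2:**
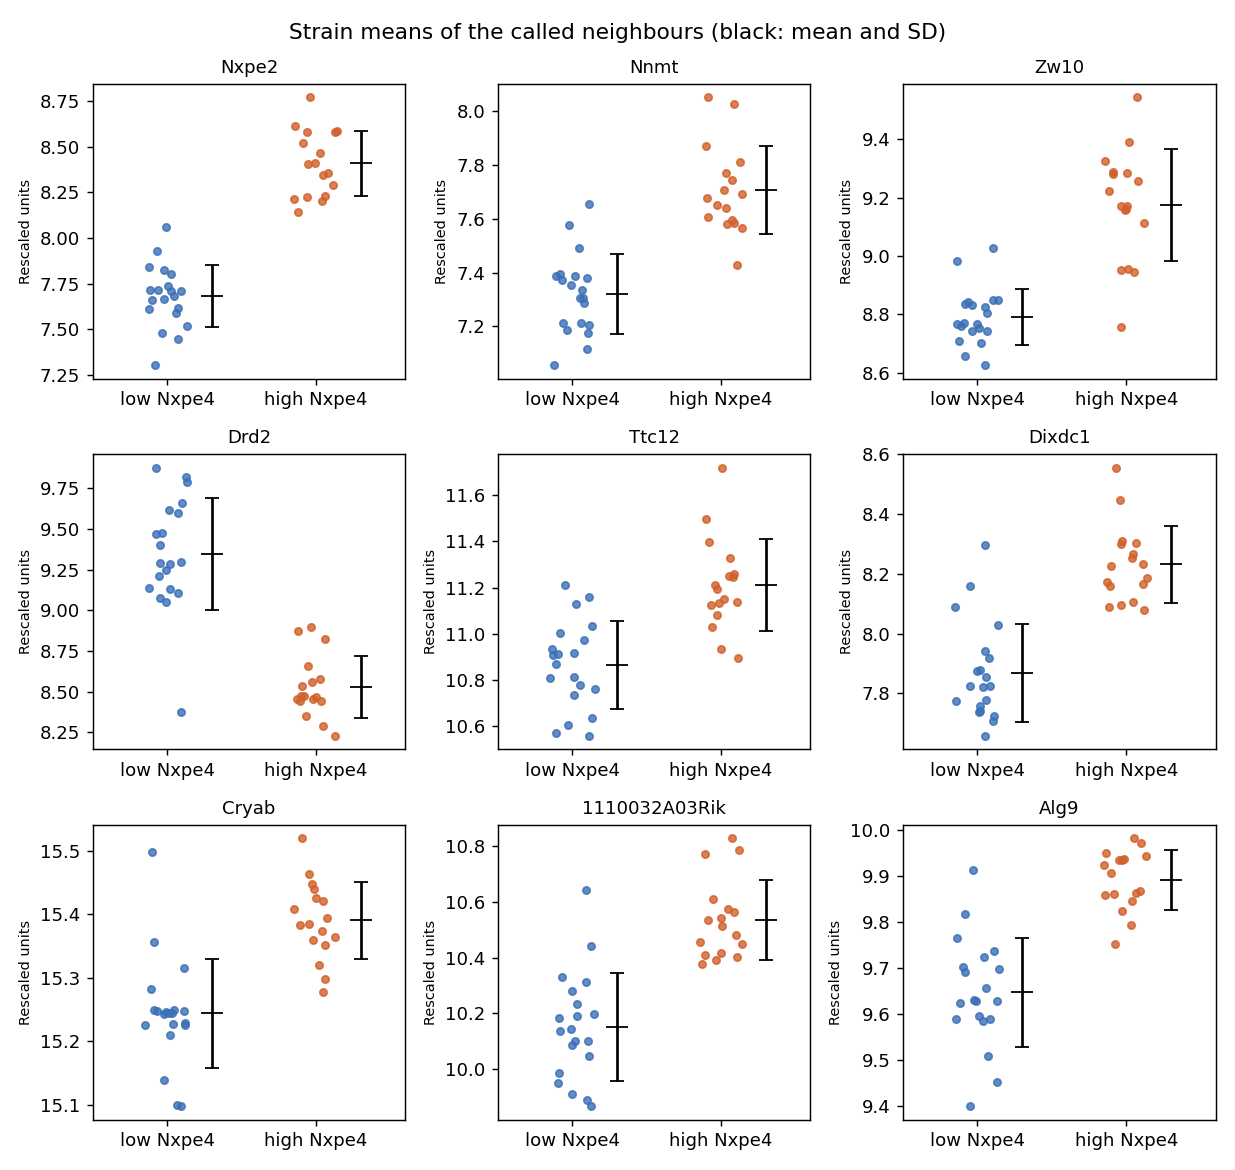
Strain means in rescaled units (vertical axis, a separate range for each gene that does not start at 0) of the 9 called genes in the low (blue, n = 20) and high (orange, n = 17) Nxpe4 groups, with group mean and SD in black. The 2 groups of Nxpe2 do not overlap, Drd2 is the one gene with the high group below, and a single low strain, BXD84, lies among the high group for Drd2.

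The called genes alternated with uncalled ones along the chromosome. Counted by gene start, all 9 fell on one side of Nxpe4, at positions 1 to 33. In that stretch 9 of 33 genes were called and 15 (45.5%) had an unadjusted p under 0.05. The stretch was cut at Alg9, the last called gene, so these shares are raised by the choice of its edge. Over positions 1 to 100, 9 of 100 genes were called and 22 (22%) had an unadjusted p under 0.05. Nxpe2 at position 1 lies inside the span of Nxpe4, so its side has no meaning of its own. On the other side 0 of 100 genes were called and 12 (12%) had an unadjusted p under 0.05. At positions 34 to 100 no gene was called either.

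None of the other genes within 10 positions of Nxpe4 was called, though some had differences as wide as those of called genes. Cadm1, a cell adhesion molecule at position -2, had a difference of -0.161 ± 0.0477 (SE, limma adjusted p = 0.57). Rexo2, a nuclease of short RNA, and Rbm7, part of the nuclear exosome targeting complex, differed by 0.0623 ± 0.0324 and 0.0942 ± 0.0369 (SE, limma adjusted p = 0.798 and 0.715). The predicted gene Gm5617, at position 5, had 0.222 ± 0.0521 (adjusted p = 0.164, called with the strain as a random block) and Zbtb16, a zinc finger transcription factor induced by glucocorticoids, 0.240 ± 0.0888 (adjusted p = 0.67). Gm8884, the serotonin receptor genes Htr3a and Htr3b and the deubiquitinase gene Usp28 lay between -0.0670 and 0.106 with adjusted p from 0.802 to 0.928. On the other side the apolipoprotein genes Apoa4, Apoa5 and Apoc3 differed by -0.00981, 0.141 and 0.0720, and Zpr1, Bud13 and the predicted genes 4931429L15Rik, 2900052N01Rik, Gm4791 and Gm10677 from -0.0279 to 0.0070, with adjusted p of 0.743 or more for all 9.

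At positions 1 to 33 the 24 genes that were not called had differences from -0.149 (Ncam1) to 0.240 (Zbtb16), with a median of 0.0365, and 6 of them had an unadjusted p under 0.05. Besides Rbm7, Gm5617 and Zbtb16 these were Ncam1, Il18 and Fdxacb1, with -0.149 ± 0.0673, 0.113 ± 0.0476 and 0.106 ± 0.0441 (SE, limma adjusted p = 0.767, 0.743 and 0.741). The genes Ankk1, Sdhd, Timm8b and Dlat of the same stretch differed by 0.00845, 0.0163, 0.0599 and -0.00558. All of these, apart from the 3 within 10 positions, were named after their values were seen. Sdhd is a subunit of succinate dehydrogenase, Timm8b a chaperone of mitochondrial import and Dlat a subunit of pyruvate dehydrogenase. The 95% interval of Dlat, from -0.0592 to 0.0480, and that of Sdhd, from -0.0616 to 0.0941, leave out differences as wide as those of the called genes. The widest differences on the other side, none of them called, were those of Tmprss13, a serine protease gene at position -22 (-0.463 ± 0.104, SE, adjusted p = 0.113), Sorl1 at position -80 (-0.441 ± 0.132, adjusted p = 0.57), Mpzl3 at position -29 (-0.310 ± 0.0797, adjusted p = 0.34), Gramd1b at position -93 (0.292 ± 0.144, adjusted p = 0.785) and Scn4b at position -27 (-0.270 ± 0.125, adjusted p = 0.767). Tmprss13, Sorl1 and Mpzl3 were called with the strain as a random block. Ppp2r1b, a scaffold subunit of protein phosphatase 2A that follows Alg9 at position 34, had -0.124 ± 0.0316 (adjusted p = 0.301).

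**Figure D3:**
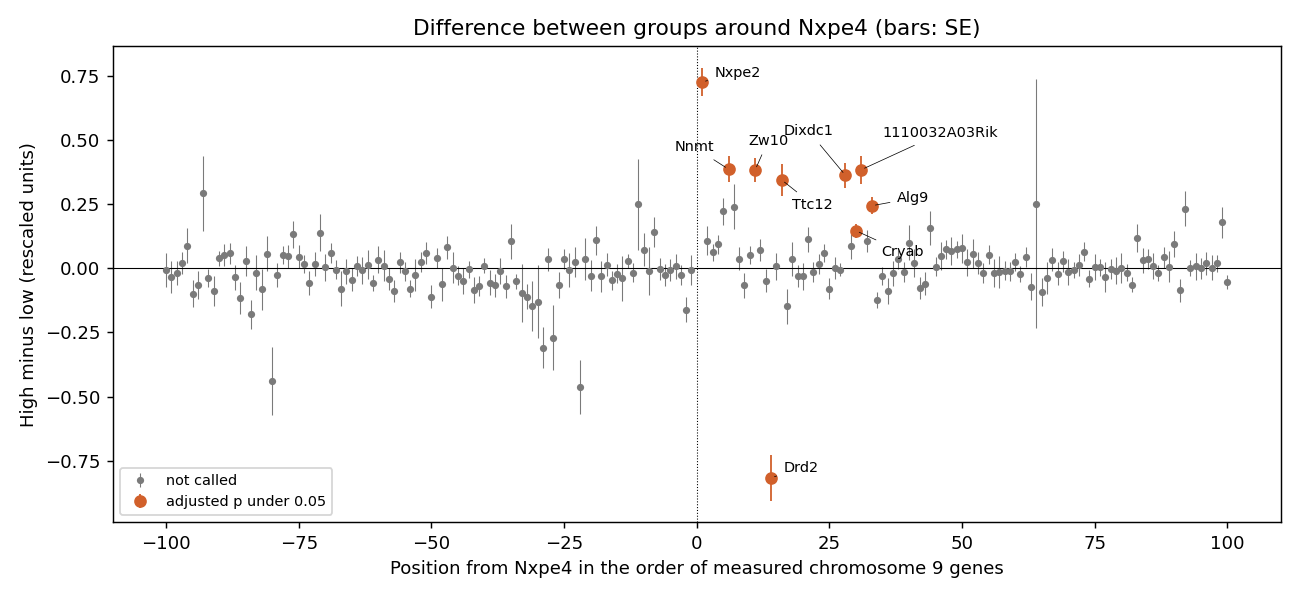
Difference between the high and low Nxpe4 group in rescaled units (vertical axis, bars: SE) for the 200 measured neighbours, by position from Nxpe4 in the gene order of chromosome 9 (horizontal axis). Orange points are the 9 called genes, all at positions 1 to 33, with Drd2 the only one below 0. The wide bar at position 64 is Sln.

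Strain by strain, most of the called genes followed the group. Of 333 strain means (9 genes in 37 strains) 28 lay on the other side of the midpoint between the group means. In 19 strains all 9 genes lay on the side of their group, in 13 strains 8 did, and 5 strains had at least 2 genes on the other side. These counts are a description, since the midpoints come from the same strains.

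The departures were not spread evenly along the chromosome in BXD84. This low strain had Nxpe4 at 6.57 on chow and 6.53 on high fat, and its Nxpe2, Nnmt and Zw10 lay on the low side, at 7.80, 7.36 and 8.75. From Drd2 on, 5 of its 6 called genes lay on the high side: Drd2 at 8.38, Ttc12 at 11.13, Dixdc1 at 8.30, 1110032A03Rik at 10.44 and Alg9 at 9.91. Cryab, at 15.25, did not. In BXD83, another low strain, Dixdc1, Cryab and 1110032A03Rik lay on the high side. BXD97 of the high group had Zw10, Ttc12 and Alg9 on the low side, BXD56 had Zw10 and Ttc12, and in the low group BXD63 had Zw10 and Alg9 on the high side. Genotypes of the strains were not used here, and whether a change of parental origin lies at these places was not tested.

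**Figure D4:**
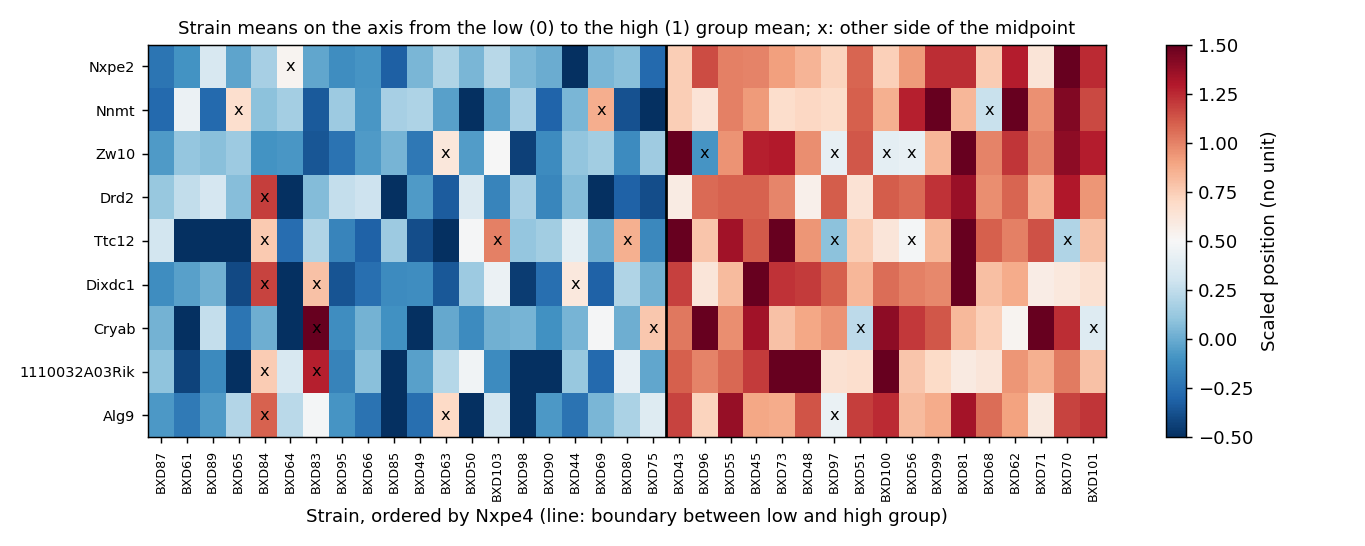
Strain means of the 9 called genes (rows, in gene order) in the 37 strains (columns, ordered by Nxpe4), scaled so that 0 is the low and 1 the high group mean (colour, no unit). An x marks each of the 28 values on the other side of the midpoint, 5 of them in BXD84, at Drd2 and 4 genes beyond it.

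Pools that took no part in the choice of groups were set against the midpoints of these genes. In the 3 BXD strains with chow alone, all with low Nxpe4, 27 of 27 values of the 9 genes lay on the low side. The 9 genes are neighbours, so the 27 values are not independent and stand for 3 strains, none of them high. The midpoints come from means of both diets. Nxpe2 of BXD60 (8.03 against 8.04) and Ttc12 of BXD79 (11.03 against 11.04) lay close to them. In the parents 25 of 36 values lay on the side that their Nxpe4 gives, 13 of 18 for C57BL/6J and 12 of 18 for DBA/2J. The parents differed in the same direction as the groups on both diets for 8 of 9 genes. Nxpe2 was 0.727 higher in C57BL/6J than in DBA/2J on chow and 0.484 higher on high fat, and Ttc12 0.510 and 0.493. Dixdc1 was lower in C57BL/6J on chow (-0.191) and higher on high fat (0.542). With 1 pool per parent and diet these contrasts have no test.

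Drd2 did not match between parents and groups. C57BL/6J, with high Nxpe4, had Drd2 at 9.52 on chow and 9.05 on high fat, on the side of the low group. The 17 chow pools of the high group ran from 8.20 over a median of 8.61 to 8.89, so all of them lay below C57BL/6J, and on high fat 16 of 17 did. DBA/2J had 9.71 and 9.43. The parents thus differed by -0.192 and -0.380, against -0.817 between the groups. Cryab of C57BL/6J (15.27 and 15.25) likewise lay below the midpoint of 15.32, and Zw10 and Alg9 of DBA/2J lay on the high side on both diets. The cause was not tested.

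The group differences of the called genes were also measured on each diet. The group difference of Drd2 was -0.871 on chow and -0.762 on high fat, that of Nnmt 0.397 and 0.376, and that of Zw10 0.368 and 0.398. Nxpe2 had 0.599 on chow and 0.853 on high fat, since its high fat value was below its chow value by 0.371 in the low group but by 0.117 in the high group (unadjusted p = 0.0168, limma adjusted p = 0.99). Over all genes 0 of 22179 (0%) showed a diet response that differed between the groups at an adjusted p under 0.05 in limma, and 961 (4.33%) had an unadjusted p under 0.05. The smallest p was that of Zscan21, a zinc finger gene (adjusted p = 0.273), followed by Slc7a11, Csl, Lncbate3 and Kif2c (adjusted p = 0.99 for each).

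No gene of another chromosome was called by limma on strain means, where 1272 had an unadjusted p under 0.05, and 2 came near. By the Wilcoxon test 1 was called, and 4 over the 74 arrays with the strain as a random block. Nqo1, a quinone reductase induced by NRF2, was 11.1 ± 0.177 in the low and 11.5 ± 0.258 in the high group (SD), a difference of 0.323 ± 0.069 (SE, limma adjusted p = 0.0703). B3glct, a glucosyltransferase of O-fucosylated proteins, differed by -0.217 ± 0.047 (SE, adjusted p = 0.0798). Both were named after their values were seen. Nqo1 was called in 6 of 13 other settings of the processing (high fat alone and groups chosen on chow are the same fit) and in 6 of 37 fits that left out a strain.

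By the absolute correlation with Nxpe4 over the 37 strain means, the 5 genes most like it were Nxpe2, Zw10, Drd2 (in the opposite sense), Nnmt and Alg9. That measure rests on the gap between the groups. Inside the groups the correlations ran lower and turned sign for some genes: for Zw10 r was 0.15 in the low and 0.24 in the high group, for Drd2 0.45 and -0.34, for Nnmt -0.19 and 0.45 and for Alg9 -0.05 and 0.07. In each strain all genes are read from the same arrays with the same scaling, and these values are descriptions without a test.

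Pathway and cell type lists were read against these counts. Of 32 lists of pathways and cell types 29 held no called gene, and 3 held 1: Nxpe2 among the Nxpe and neurexophilin genes, Nnmt among the genes of nicotinamide and NAD, and Cryab among the heat shock proteins. Median differences of the lists ran from -0.0475 for fetal and stress genes to 0.139 for liver and lung markers, against -0.0025 over all genes. Of the 10 liver and lung markers 0 had an unadjusted p under 0.05 in limma, and Apoa1 of that list is itself a neighbour, at position -11. Among 9 measured Nxpe and neurexophilin genes, the relatives on other chromosomes Nxpe3 and Nxpe5 differed by 0.0144 ± 0.0592 and 0.00446 ± 0.0809 (SE, adjusted p = 0.985 and 0.998). Of 25 genes of sialic acid synthesis and modification 0 were called and 2 had an unadjusted p under 0.05 (8%, near the 6.34% of all genes). Of 13 nicotinamide and NAD genes only Nnmt had one.

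Heart and cell type markers gave no called gene in either direction. The 12 cardiomyocyte markers were measured between 11.2 and 15.98 units (the labelled tissue is heart), and 0 of 12 had an unadjusted p under 0.05. Of 14 markers of intestinal epithelium, the tissue the Nxpe family is known from, 0 had one, with a median difference of 0.0171 and levels from 6.02 to 10.9. Of 19 genes of sarcomere and contraction 3 (15.8%) had one, Myh7, Tcap and Tpm1, with differences of 0.310, 0.154 and 0.0770. Differences in that list ran from -0.0276 (Ldb3) to 0.310. Of 10 atrial markers 1 (Kcna5) had one, of 11 fibroblast markers 0, of 13 macrophage markers 0 and of 10 lymphocyte markers 1 (Cd79a). Of 11 endothelial markers 2 (18.2%) had one, in opposite directions (Tie1 -0.111, Fabp4 0.0934). Of 10 skeletal muscle markers 1 (Myh1) had one, and of 9 mesothelial markers 1 (Krt18). In bulk RNA fewer cells of a type and less RNA per cell cannot be told apart. With atrial, fat and lymphocyte marker means as covariates all 9 genes stayed called. Some of these markers are themselves neighbours of Nxpe4: Cd3e and Cd3g of the lymphocyte list, at positions -31 and -33, and Sln of the atrial list.

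Genes known to be fixed differently among BXD strains, 13 on other chromosomes and Myo5a on chromosome 9, were not called either. Of these 14 genes 3 (21.4%, against 6.34% of all genes) had an unadjusted p under 0.05 in limma, Kcnma1, Gpnmb and Myo5a. Kcnma1, the BK potassium channel, was 10.1 ± 1.49 in the low and 8.79 ± 2.07 in the high group (SD), a difference of -1.35 ± 0.547 (SE, limma adjusted p = 0.728). Gpnmb, a glycoprotein mutated in DBA/2J, differed by -0.410 ± 0.178, and Myo5a, the dilute coat colour gene at position 294, by -0.266 ± 0.10 (adjusted p = 0.751 and 0.687). Kcnma1, Gpnmb and Myo5a had 95% intervals that left out 0, from -2.46 to -0.237, -0.772 to -0.0484 and -0.470 to -0.0626. The 95% intervals of Tnni3k, Cyfip2, H2-Ea, Mndal and Trim12a spanned 0 and were wide, up to -1.40 to 1.59 for H2-Ea, since these genes vary strongly within each group. The smallest in size was the difference of Nnt, 0.00823 ± 0.0723.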

How the data were processed

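The deposited table holds a log-like score for each probe set, made by the authors with Affymetrix Expression Console per the submitters' processing notes. Its version, the summarisation and the genome build are not stated in the sources used here. Diet was taken from the treatment label, since the common protocol mentions no diet but chow. Names came from the platform's gene table. Each of 22180 genes was represented by its brightest probe set, without a filter on level, and gene order came from RefSeq (GRCm38.p6). The median gene level was 8.18 units, and the called genes Nxpe2 (8.02), Nnmt (7.50) and Dixdc1 (8.04) lay below it. Nxpe4 has 1 probe set.

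Strain means of both diets were compared with limma 3.58.1 (lmFit and eBayes) in R 4.3.3 at an adjusted p under 0.05, Nxpe4 left out. The diet response was tested on strain differences, and Nxpe4 itself by permutation (100000 draws, Python 3.11.15). The group fit was also run on simulated data in which genes vary independently, unlike neighbouring genes here, so nothing is concluded from it. Alternatives varied diet, scaling, probe sets, covariates, test and strains.

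Named are all genes within 10 positions of Nxpe4, the called genes, the 5 smallest p of the diet by group test, the 5 genes most like Nxpe4 and members of 2 lists, predicted genes only near Nxpe4. Strains, members and lists were chosen with earlier results of these data known. Probe sequences were not used here, so sequence variants under probes cannot be told apart from transcript levels. Labels do not say whether pools of a strain were handled together. The number of strains limits the precision of the group differences.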

Additional observations from a re-analysis of the deposited data

How the results depend on the processing

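The 9 genes were all called in each of 37 fits that left out a strain, with 9 to 11 genes called in all, 9 to 10 of them neighbours and 0 on the rest of chromosome 9. No difference of a called gene changed sign in any setting run. Of 22179 genes 6 were called on chow alone, without Cryab, Dixdc1 and Ttc12 (the last 2 at an adjusted p of 0.0564), and 10 on high fat alone, without Cryab. Groups chosen on one diet and tested on the other were the same groups and gave the same counts. Among the 11090 genes above the median level 6 were called, each of them among the 9. Over the 74 arrays with a diet term and the strain as a random block 17 genes were called, of which 4 lie on other chromosomes, Tmprss13, Mpzl3, Sorl1 and Gm5617 being among the rest. On other chromosomes 1 gene was called on high fat alone, also with the groups chosen on chow, 2 after quantile normalization, and 1 each with arrays centred on their median, with Nxpe4 as a continuous term and by the Wilcoxon test (Abcc3). Without single strains it was 0 to 2. On chromosome 9 beyond the neighbours 1 gene (Fbxw16) was called on high fat alone, likewise with groups chosen on chow. Without single strains the diet difference of Nxpe4 in the high group lay between 0.152 and 0.246 and in the low group between 0.20 and 0.256. Dimmer signals and 1 pool per strain and diet limit small differences.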

Other observations

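Transcripts of the mitochondrial genome, which encode subunits of the respiratory chain, were slightly higher in the high Nxpe4 group. None passed the test (limma, adjusted p from 0.57 to 0.989), while 8 of 10 measured genes had an unadjusted p under 0.05, as 6.34% of all genes did. All 10 were higher in the high group, by 0.0316 (ND6) to 0.0845 units (ND3), with a median of 0.0725 against -0.0025 over all genes. ND3 was 16.1 ± 0.0460 in the low and 16.2 ± 0.0861 in the high group (SD, n = 20 and 17). ND4L, COX3, ND1 and ND2 differed by 0.0828, 0.0817, 0.0811 and 0.0783. ND6 was far dimmer than the others, at 9.09 in the low and 9.13 in the high group, with an SE of 0.175 for its difference. Most of these genes are read from shared precursor transcripts and are not independent of each other. The group was chosen after the values were seen, and the cause was not tested.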
